A study of Drosophila melanogaster with 6 samples.

Results

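Nuclear Factor Y (NF-Y) is a transcription factor of 3 different subunits. NF-YB and NF-YC pair through the histone fold, the protein fold by which core histones dimerize, and NF-YA joins the pair and brings the sequence-specific contact with the CCAAT box of promoters. The same fold builds the related dimers described here. NC2alpha and NC2beta form a repressor that clamps TBP on DNA and keeps TFIIA and TFIIB away, Chrac-14 and Chrac-16 form the small subunits of the chromatin remodelling complex CHRAC, and in mammals the relatives of Chrac-14 and PolE4 form the small subunits of DNA polymerase epsilon. The genes were taken by name from the deposited gene table, in which 7 of 8 listed names were found among 8470 genes: Nf-YA, Nf-YB, Nf-YC, NC2alpha, NC2beta, Chrac-14 and Chrac-16. The listed name Mes4 was absent as such. It is a synonym of PolE4, which the table lists, and PolE4 is therefore described beside the 7 genes but not counted among them.

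The libraries came from adult female flies in which intestinal stem cells (ISCs), the dividing cells that renew the midgut epithelium, were labelled with YFP and sorted. In 3 libraries, numbered 2, 4 and 5, NF-YA RNAi (VDRC 106132) was expressed, and 3 control libraries, numbered 1, 2 and 3, came from the same driver combined with Oregon R, a wild-type strain and not the parental strain of the RNAi line. All flies of both groups carried Esg-Gal4-ts, UAS-2x YFP and Su(H)-GBE-Gal80, so that the esg promoter drove both RNAi and the YFP used for sorting, Gal80 kept the driver off in enteroblasts, and expression was induced by temperature. By the sample labels, flies spent 3 days at 18 °C, 3 days at 29 °C and 3 days on holidic (chemically defined) food, whereas the study's methods give 3 days on this diet at 29 °C. The age of the flies beyond these times, the number of guts per sample and whether counting used strand are not given in the sources used here. The methods describe 3 independent samples per line, and p-values measure the spread between them.

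Estimated counts summed to between 77092609 and 122269943 per library and were scaled to CPM, counts per 1000000 after TMM normalization. Within a group, every pair of libraries differed by more than counting noise (chi-square of 69.1 or more per degree of freedom). Of 8 progenitor markers tested, 0 rose and 1 fell: esg, the gene whose promoter drove the RNAi and the YFP, had 181 ± 13.4 CPM in NF-YA RNAi and 279 ± 32.2 CPM in control ISCs (SD, n = 3 each; log2 fold change -0.62, edgeR adjusted p = 0.00714). The summed level of the progenitor markers ranged from 2817 to 3000 CPM in NF-YA RNAi and from 3074 to 3566 CPM in control libraries. These 8 markers were thus present in every library, with a log2 fold change below 0 for 7 and above 0 for 1. The listed markers Dl and hdc were not matched by name and are not among them. The list is one of progenitors and not of ISCs alone. Among all 9080 genes tested, 8.02% fell and 6.19% rose. Of 15 enterocyte markers, 7 fell and 0 rose, with a summed level of 347 to 1521 CPM in NF-YA RNAi and 2044 to 5676 CPM in control libraries. Amy-p alone had 1639 CPM in control library 1. The log2 fold change was below 0 for 13 of the 15 and above 0 for nub and mex1 (0.54 and 0.46, edgeR adjusted p = 0.107 and 0.617). For nub the groups did not overlap (13.4, 10.7 and 8.11 CPM in NF-YA RNAi, against 6.87, 7.53 and 7.80 CPM in control libraries). Of 10 enteroendocrine markers, 4 fell and 0 rose (470 to 1092 CPM in NF-YA RNAi, against 1657 to 2096 CPM in control libraries). Summed levels overlapped between the groups for the other cell types: of 10 visceral muscle markers, 1 fell and 0 rose (7.47 to 13.2 CPM in NF-YA RNAi, against 10.4 to 45.4 CPM in control libraries), and of 3 hemocyte markers tested, 1 rose and 1 fell (4.73 to 7.47 CPM in NF-YA RNAi, against 7.13 to 14.6 CPM in control libraries), with the hemocyte marker He at 0. The part of these markers in the results below was not tested, and in bulk libraries fewer cells of a type and less RNA per cell cannot be told apart.

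Nf-YA, the target of the RNAi and the subunit that contacts the CCAAT box, was the only one of the 7 genes with an edgeR adjusted p under 0.05. Nf-YA had 3.58, 4.92 and 4.30 CPM in NF-YA RNAi libraries 2, 4 and 5, against 16.01, 19.7 and 23.6 CPM in control libraries 1, 2 and 3. Each NF-YA RNAi library was thus below every control library, and the level of the targeted gene did not go against the label of any of the 6 libraries. The means were 4.27 ± 0.672 CPM in NF-YA RNAi and 19.8 ± 3.79 CPM in control ISCs (SD, n = 3 each), which left 21.6% of the control level. The log2 fold change was -2.21 (SE 0.196, 95% interval -2.65 to -1.77; edgeR quasi-likelihood test, Benjamini-Hochberg adjusted p = 0.000203 over 9080 genes), and the interval of the remaining fraction ran from 0.159 to 0.293 of control. Among all genes tested, Nf-YA stood at rank 34 by p, and at rank 81 of 728 downregulated genes by log2 fold change. The ranking by log2 fold change includes genes without counts in NF-YA RNAi, such as Ada1-1 at -10.6. In the gene table's own normalized values the groups were as far apart, at 377, 518 and 456 in NF-YA RNAi against 1690, 2054 and 2482 in control libraries.

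**Figure D1:**
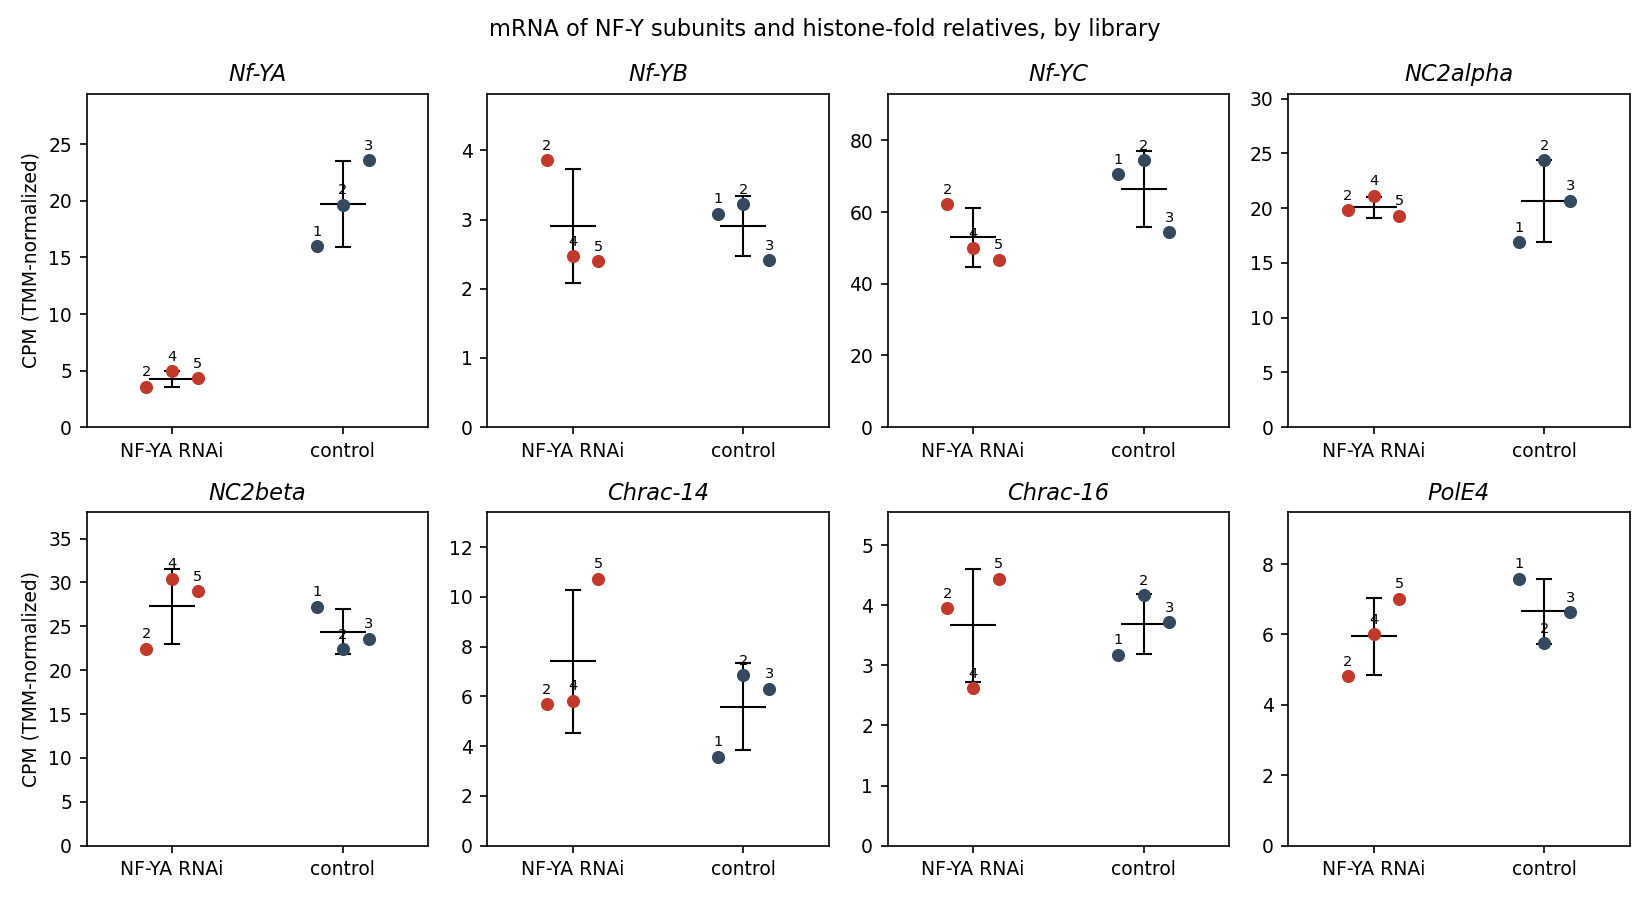
CPM (vertical axis, starting at 0, with its own scale for each gene) of the 7 genes and PolE4 in NF-YA RNAi (left) and control (right) libraries. Points are libraries with their numbers, and the bar and whiskers give the mean ± SD of 3 libraries. Only for Nf-YA, with 3.58 to 4.92 CPM in NF-YA RNAi and 16.01 to 23.6 CPM in control, do the groups lie apart.

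With Nf-YA, 1 of the 7 genes was downregulated, where 8.02% of all 9080 genes tested were, and 0 were upregulated, where 6.19% of all genes were. In either direction 14.2% of all genes were called. Groups without overlap were seen in 1 of the 7 genes, against 35.9% of all genes. All 7 genes passed the filter on low counts. None of the other 6 genes had an unadjusted p under 0.05 in the edgeR test, and DESeq2 called none of them either. Their median log2 fold change was -0.0029 without Nf-YA and -0.0072 with it, beside -0.0185 over all genes tested.

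Nf-YA has 1 annotated transcript of 2055 bases in 2 exons on the minus strand of chromosome 3L (9440056 to 9442267, BDGP6.54). Its first exon of 144 bases is non-coding and is also the first exon of Bet3, a gene on the same strand that encodes a subunit of the TRAPP complex of vesicle transport. Of this exon, 39 bases are coding in Bet3. The other exons of Bet3 begin 2707 bases from the shared transcript start, beyond the second exon of Nf-YA, which ends at 2212 bases and holds all 1200 coding bases. Bet3 had 14.1, 12.6 and 15.9 CPM in NF-YA RNAi libraries 2, 4 and 5, against 13.9, 17.3 and 12.8 CPM in control libraries. Its groups overlapped, with a log2 fold change of -0.05 (SE 0.162, 95% interval -0.41 to 0.32, edgeR adjusted p = 0.892). Per length, the TPM of Nf-YA was 0.151 ± 0.0373 of that of Bet3 in NF-YA RNAi and 0.681 ± 0.201 in control ISCs (SD, n = 3 each). The interval of Bet3 leaves out a loss of the size seen for Nf-YA. An annotated INE-1 transposable element shares 153 non-coding exon bases with Nf-YA on the other strand and was not counted.

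**Figure D2:**
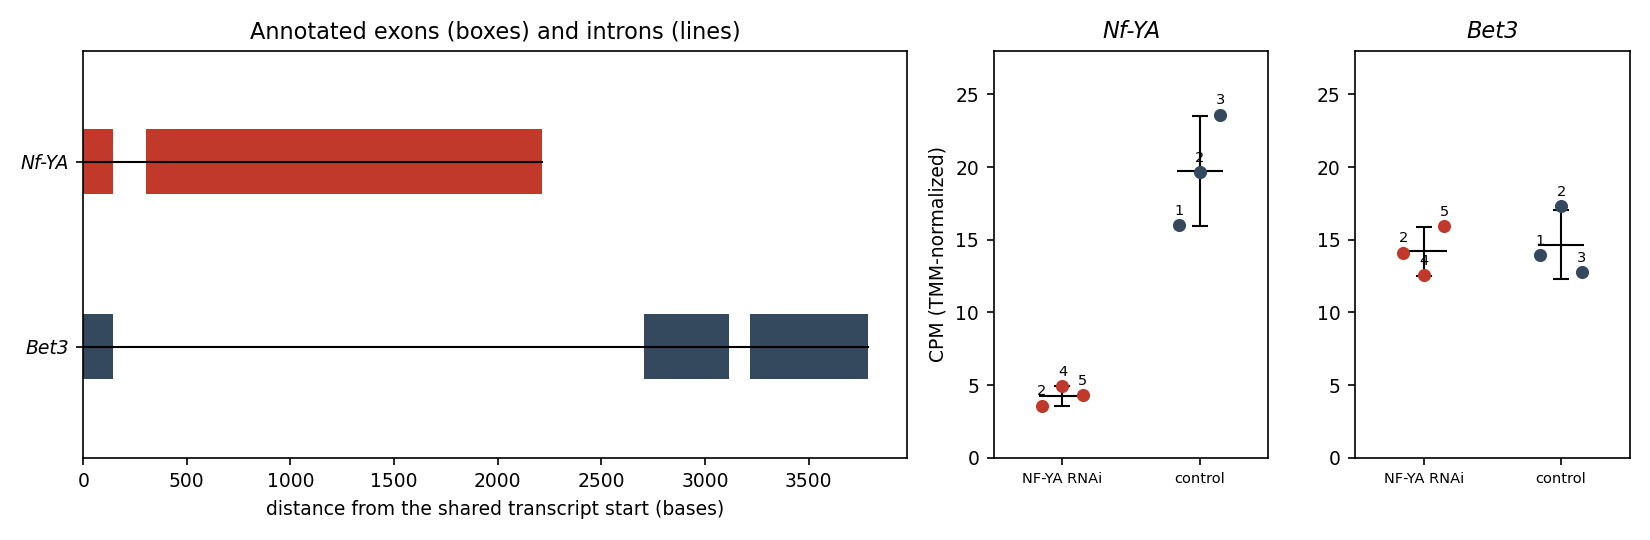
Left, annotated exons (boxes) and introns (lines) of Nf-YA (top) and Bet3 (bottom), by distance in bases from the start they share. Middle and right, CPM of both genes on one scale in NF-YA RNAi (left) and control (right) libraries, with library numbers and mean ± SD, n = 3 each. Bet3 stays between 12.6 and 17.3 CPM in all 6 libraries.

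NF-YB and NF-YC are the histone-fold partners that NF-YA needs for binding DNA. Nf-YC, on chromosome X (6818178 to 6820919), had the highest level per length of the 3 subunits. Nf-YC had 62.2, 49.97 and 46.7 CPM in NF-YA RNAi libraries 2, 4 and 5, against 70.5, 74.5 and 54.5 CPM in control libraries 1, 2 and 3. NF-YA RNAi library 2 lay above control library 3, so the groups overlapped. The means of Nf-YC were 53.0 ± 8.18 CPM in NF-YA RNAi and 66.5 ± 10.6 CPM in control ISCs (SD, n = 3 each), with a log2 fold change of -0.33 (SE 0.15, 95% interval -0.66 to 0.01). This passed neither the edgeR test (adjusted p = 0.18, unadjusted p = 0.0541) nor the DESeq2 test (adjusted p = 0.124, unadjusted p = 0.0352). The interval leaves room for a lower level by up to 0.66 on the log2 scale but not for a loss of the size seen for Nf-YA.

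Nf-YB, on chromosome 2L (19736044 to 19737088), had a lower level per length than Nf-YC. It had 3.86, 2.47 and 2.40 CPM in NF-YA RNAi libraries 2, 4 and 5, against 3.09, 3.22 and 2.42 CPM in control libraries. The highest and the lowest library both belonged to NF-YA RNAi. The means of Nf-YB were 2.91 ± 0.823 CPM in NF-YA RNAi and 2.91 ± 0.432 CPM in control ISCs (SD, n = 3 each). The 95% interval of the log2 fold change ran from -0.72 to 0.73 (SE 0.323, edgeR adjusted p = 0.998), which at 190 to 451 counts per library leaves room for a change of that size in either direction.

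Since TPM are scaled by transcript length, they allow the 3 subunits to be set against each other. Nf-YA held 5.54%, 9.39% and 8.82% of the summed TPM of the 3 subunits in NF-YA RNAi libraries 2, 4 and 5, against 19.5%, 22.1% and 31.7% in control libraries. The mean share of Nf-YC was 76.4% ± 0.353 in NF-YA RNAi and 64.6% ± 5.41 in control ISCs, and that of Nf-YB was 15.7% ± 1.74 in NF-YA RNAi and 10.97% ± 1.07 in control ISCs (SD, n = 3 each). Since the 3 shares make up a whole, a lower share of Nf-YA raises those of its partners. In mean TPM, Nf-YC had 19.7 in NF-YA RNAi and 23.4 in control ISCs, and Nf-YB 4.10 and 3.97. Nf-YA was thus the second most abundant subunit mRNA in control ISCs and the least abundant in NF-YA RNAi.

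The ratio of Nf-YA to Nf-YB in TPM was 0.312, 0.644 and 0.594 in NF-YA RNAi libraries 2, 4 and 5, against 1.63, 1.99 and 3.22 in control libraries. All NF-YA RNAi libraries had less Nf-YA than Nf-YB mRNA, and all control libraries had more. The mean log2 ratio differed by -2.15 between the groups (exact two-sided permutation test, p = 0.1, which is the smallest p that 3 libraries against 3 allow). The ratio of Nf-YA to Nf-YC was 0.104 ± 0.0277 in NF-YA RNAi and 0.386 ± 0.138 in control ISCs (SD, n = 3 each; difference in mean log2 ratio -1.88, exact two-sided permutation test, p = 0.1). Both ratios contain the RNAi target, whose groups already lay apart, so these tests add no separate support. The ratio of Nf-YC to Nf-YB, the pair of histone-fold subunits, was 4.33, 5.21 and 5.13 in NF-YA RNAi against 5.72, 6.03 and 5.93 in control libraries, and this difference of -0.27 in the mean log2 ratio was not tested.

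**Figure D3:**
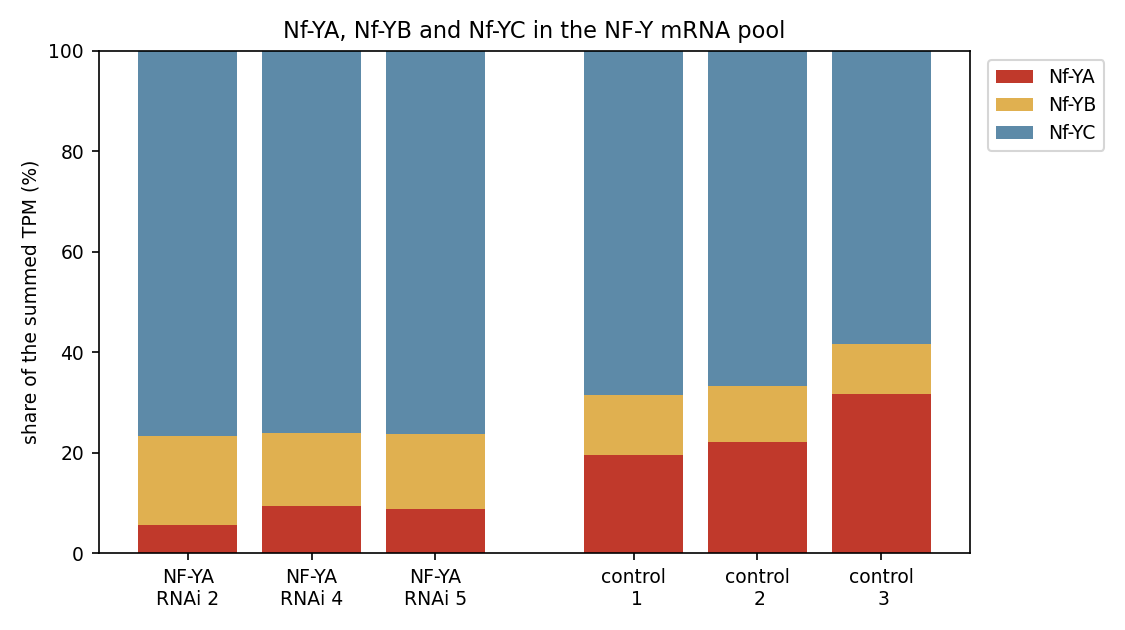
Share of each NF-Y subunit in the summed TPM of all 3 (vertical axis, percent) in the 3 NF-YA RNAi libraries (left) and the 3 control libraries (right). Nf-YA takes 5.54% to 9.39% in NF-YA RNAi and 19.5% to 31.7% in control.

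NC2alpha and NC2beta, the subunits of the TBP-binding repressor NC2, had overlapping groups. NC2alpha, on chromosome 2R (21670152 to 21671593), had 19.8, 21.2 and 19.3 CPM in NF-YA RNAi libraries 2, 4 and 5, against 16.9, 24.4 and 20.7 CPM in control libraries. All 3 NF-YA RNAi libraries lay within the range of the control libraries. The log2 fold change of NC2alpha was -0.04 (SE 0.15, 95% interval -0.38 to 0.30, edgeR adjusted p = 0.903). NC2beta, on chromosome 2L (15007813 to 15008538), had 22.4, 30.4 and 29.0 CPM in NF-YA RNAi libraries, against 27.2, 22.4 and 23.6 CPM in control libraries. NF-YA RNAi libraries 4 and 5 were the 2 highest, and NF-YA RNAi library 2 lay among the control libraries. The log2 fold change of NC2beta was 0.16 (SE 0.146, 95% interval -0.17 to 0.49, edgeR adjusted p = 0.524).

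Chrac-14, on chromosome 2L (8437405 to 8437996), encodes the subunit that CHRAC shares with the DNA polymerase epsilon pair. It had 5.68, 5.82 and 10.7 CPM in NF-YA RNAi libraries 2, 4 and 5, against 3.58, 6.85 and 6.32 CPM in control libraries 1, 2 and 3. NF-YA RNAi library 5 was high and control library 1 low, and the other 4 libraries lay close together. The mean of Chrac-14 was 7.41 ± 2.88 CPM in NF-YA RNAi and 5.58 ± 1.76 CPM in control ISCs (SD, n = 3 each). The log2 fold change of Chrac-14 was 0.41 (SE 0.319, 95% interval -0.31 to 1.12, edgeR adjusted p = 0.452), and it was 0.06 when NF-YA RNAi library 5 was left out and 0.17 when control library 1 was. Of the 8 genes, Chrac-14 varied most within groups, with an SD of 0.514 in log2 CPM, and NC2alpha least, with 0.193.

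Chrac-16, on chromosome X (12017225 to 12017961), is the histone-fold partner of Chrac-14 in CHRAC. It had 3.95, 2.62 and 4.44 CPM in NF-YA RNAi libraries 2, 4 and 5, against 3.17, 4.16 and 3.72 CPM in control libraries. The control libraries all lay within the range of the NF-YA RNAi libraries. The means were 3.67 ± 0.941 CPM in NF-YA RNAi and 3.68 ± 0.495 CPM in control ISCs (SD, n = 3 each), with a 95% interval of the log2 fold change from -0.65 to 0.63 (edgeR adjusted p = 0.994). PolE4, on chromosome 2R (22411789 to 22412582), had 4.82, 6.01 and 7.01 CPM in NF-YA RNAi libraries, against 7.58, 5.76 and 6.63 CPM in control libraries. Its groups overlapped as well, with a log2 fold change of -0.16 (SE 0.21, 95% interval -0.64 to 0.31, edgeR adjusted p = 0.672).

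**Figure D4:**
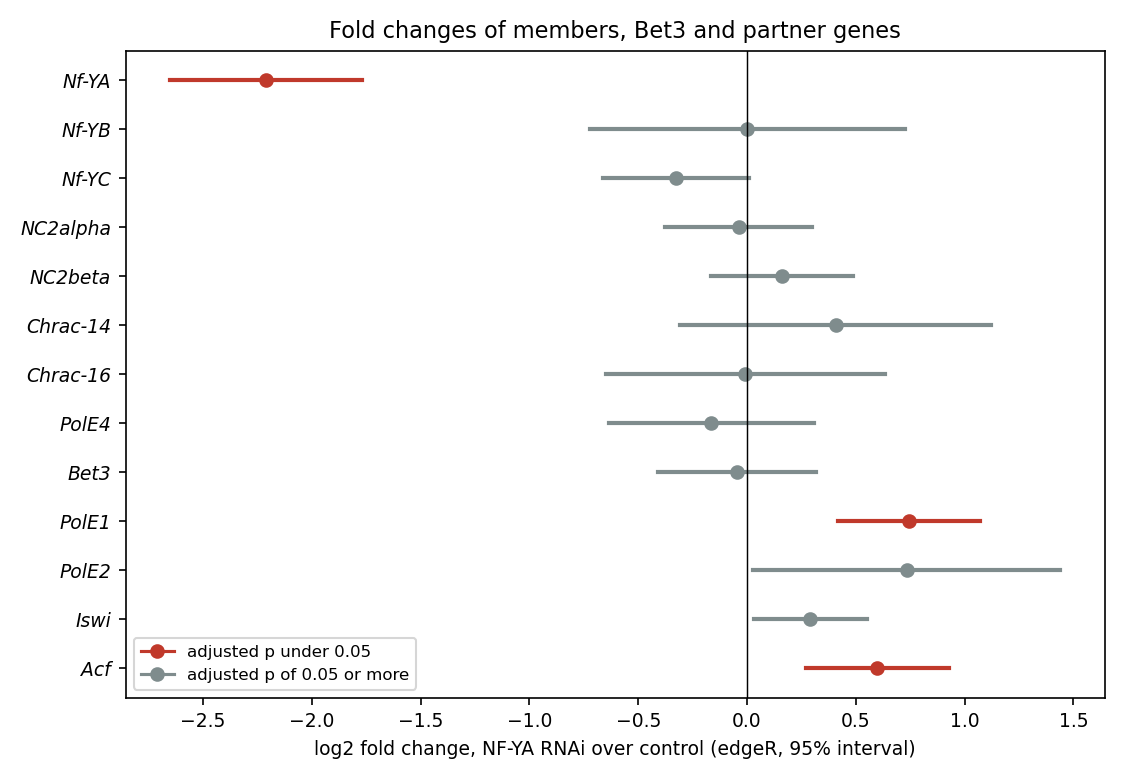
Log2 fold change, NF-YA RNAi over control, with its 95% interval from edgeR (horizontal axis), for the 7 genes, PolE4, Bet3 and the partner genes PolE1, PolE2, Iswi and Acf. Red marks an adjusted p under 0.05. Among the 7 genes and PolE4 only the interval of Nf-YA, from -2.65 to -1.77, leaves out 0.

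Set in order by TPM, NC2beta had the highest level of the 8 genes in both groups, at 46.1 ± 7.09 TPM in NF-YA RNAi and 38.6 ± 2.89 TPM in control ISCs (SD, n = 3 each), above the range of every other gene. In NF-YA RNAi, Nf-YC (19.7 TPM), Chrac-14 (17.02 TPM) and NC2alpha (16.9 TPM) followed with overlapping ranges. PolE4 (10.97 TPM) lay below these and above Chrac-16 (6.65 TPM) and Nf-YB (4.10 TPM), whose ranges overlapped, and Nf-YA was lowest at 1.99 TPM. Its range of 1.67 to 2.30 TPM did not reach that of Nf-YB, 3.37 to 5.35 TPM. In control ISCs, Nf-YC (23.4 TPM), NC2alpha (16.5 TPM), Chrac-14 (12.1 TPM) and PolE4 (11.4 TPM) followed, each overlapping with the next of these 4, and PolE4 lay above Nf-YA. Nf-YA (8.70 TPM) and Chrac-16 (6.38 TPM) overlapped, and Nf-YB was lowest at 3.97 TPM. Nf-YA was therefore sixth of 8 in control ISCs and last in NF-YA RNAi.

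**Figure D5:**
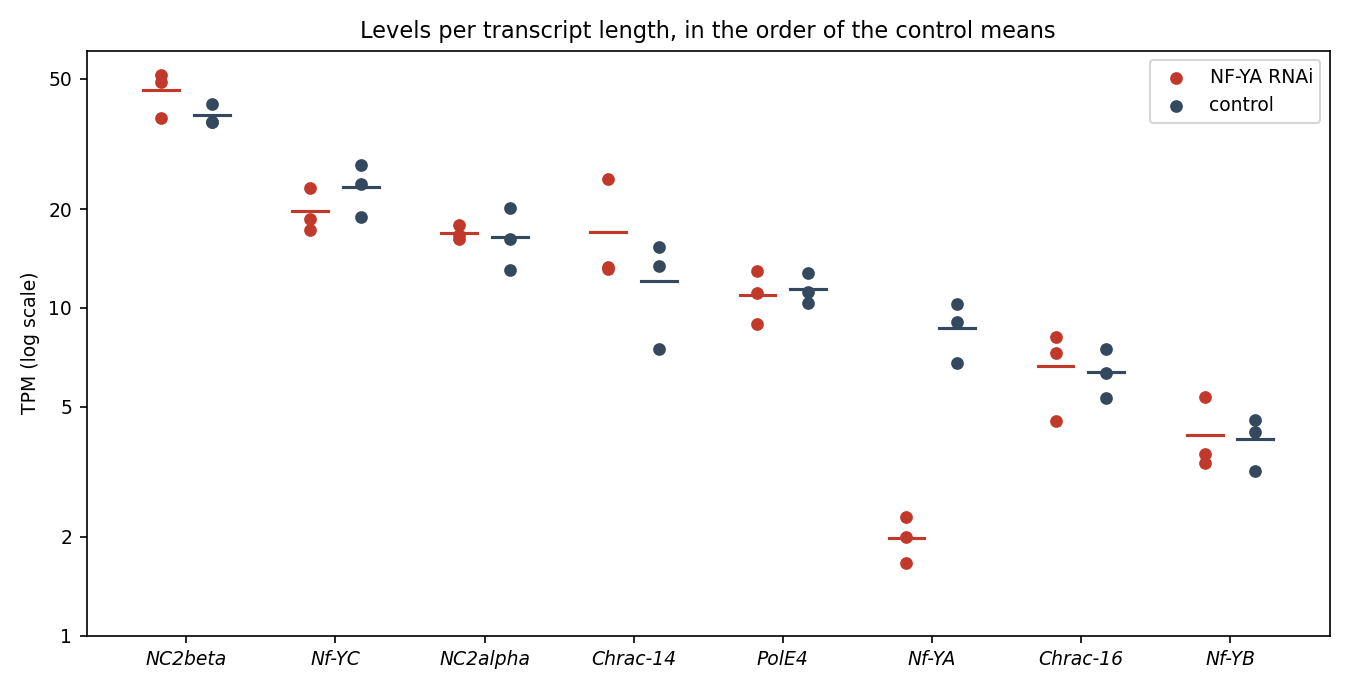
TPM on a log scale (vertical axis) of the 8 genes in NF-YA RNAi (red, left of each pair) and control (dark, right of each pair) libraries, in the order of the control means. Points are libraries and lines are means of 3. Nf-YA is at 6.81 to 10.2 TPM in control and at 1.67 to 2.30 TPM in NF-YA RNAi, below all other genes.

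For 3 of the 8 genes the deposited files split the counts between a pair of annotated transcripts. Nf-YB has a transcript of 928 bases (FBtr0081289) to which 165, 41.3 and 52.3 counts were assigned in NF-YA RNAi libraries 2, 4 and 5, against 0, 52.5 and 68.6 in control libraries. The longer transcript of Chrac-16 (FBtr0339625, 737 bases) received counts only in NF-YA RNAi library 4, where 192 counts were assigned to it and 128 to the shorter one. The longer transcript of PolE4 (FBtr0301243) received counts only in control libraries 2 and 3, with 33.2 and 97.5. These splits are Salmon's estimates. In an edgeR fit over all 16106 transcripts that passed the filter, of which 0.397% were called, none of the tested transcripts of the 8 genes was called but that of Nf-YA (log2 fold change -2.22, SE 0.248, adjusted p = 0.0469). In this transcript fit the call was lost when any 1 library was left out (edgeR adjusted p between 0.102 and 0.182). DESeq2 called the same transcript (log2 fold change -2.21, adjusted p = 2.92e-14), which is the only one annotated for Nf-YA.

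Exons of 3 of these genes overlap a neighbour on the other strand, in bases that are non-coding in the histone-fold gene, and without a stated strand setting reads from these bases cannot be assigned to either gene. Chrac-16 shares 151 of its 737 bases with regucalcin, named for a calcium-binding protein of mammals. Regucalcin fell, with 10.5, 8.65 and 9.46 CPM in NF-YA RNAi libraries 2, 4 and 5, against 18.6, 17.1 and 16.3 CPM in control libraries (log2 fold change -0.86, SE 0.142, edgeR adjusted p = 0.00517). NC2beta shares 50 bases with THG, whose levels of 1.254 ± 0.506 CPM in NF-YA RNAi and 0.446 ± 0.16 CPM in control ISCs did not pass the test (SD, n = 3 each; edgeR adjusted p = 0.164), although limma called THG on log2(TPM + 0.5) (adjusted p = 0.038) and on log2(TPM + 0.1) (adjusted p = 0.0423). PolE4 shares 27 bases with qkr58E-1, a gene of the KH-domain RNA-binding family, with 46.0 ± 3.24 CPM in NF-YA RNAi and 42.2 ± 2.40 CPM in control ISCs (SD, n = 3 each; edgeR adjusted p = 0.5).

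The complexes with which these histone-fold proteins work were followed through 43 further genes in 6 lists, of which 40 were tested. Of these, 3 rose and 1 fell, where 6.19% and 8.02% of all genes did, and their median log2 fold change was 0.15, beside -0.02 over all genes. The PolE1 gene, for the catalytic subunit of DNA polymerase epsilon, rose to 17.7 ± 2.12 CPM in NF-YA RNAi, against 10.6 ± 0.789 CPM in control ISCs (SD, n = 3 each; log2 fold change 0.74, SE 0.145, edgeR adjusted p = 0.0108). PolE2, for the second subunit of that enzyme, had 4.55 ± 0.982 CPM in NF-YA RNAi and 2.74 ± 0.801 CPM in control ISCs, with a similar log2 fold change of 0.73 that did not pass the test (SE 0.315, edgeR adjusted p = 0.155). Both stood beside PolE4 and Chrac-14, the histone-fold genes of this set, which did not pass.

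In the list of CHRAC partners, Acf, the large subunit shared by ACF and CHRAC, rose to 12.8 ± 1.17 CPM in NF-YA RNAi, against 8.46 ± 0.372 CPM in control ISCs (SD, n = 3 each; log2 fold change 0.60, SE 0.147, edgeR adjusted p = 0.0268). Iswi, the ATPase of these remodellers, had 72.4 ± 4.88 CPM in NF-YA RNAi and 59.1 ± 7.39 CPM in control ISCs (log2 fold change 0.29, edgeR adjusted p = 0.128). The call of Acf was lost in each of the 6 fits that left out 1 library (log2 fold change 0.54 to 0.66, adjusted p between 0.0546 and 0.0861), whereas PolE1 was called in all 6.

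Of 15 tested histone-fold subunits of TFIID and SAGA, complexes that bring TBP and acetylation to promoters, 1 rose and 1 fell (median log2 fold change 0.14). Taf11, a histone-fold subunit of TFIID, rose to 17.1 ± 1.92 CPM in NF-YA RNAi, against 11.7 ± 1.27 CPM in control ISCs (SD, n = 3 each; log2 fold change 0.54, SE 0.149, edgeR adjusted p = 0.0389). This call held only without control library 3 among the 6 fits that left out 1 library, and the adjusted p was between 0.0567 and 0.146 in the other 5, while the log2 fold change stayed between 0.44 and 0.62 over all 6. The highest log2 fold change in the list was that of mia, 0.84, which did not pass (SE 0.416, edgeR adjusted p = 0.217). It rested on NF-YA RNAi library 5, since mia had 2.46, 1.91 and 4.84 CPM in NF-YA RNAi libraries 2, 4 and 5, against 1.81, 1.51 and 1.80 CPM in control libraries, and without that library the log2 fold change was 0.37, below that of Taf11 in the same fit (0.61).

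Ada1-1, which encodes a SAGA subunit, fell: it had 0 counts in all 3 NF-YA RNAi libraries, against 2.58, 1.39 and 1.40 CPM in control libraries 1, 2 and 3 (edgeR adjusted p = 0.00198). Against a floor of 3 counts per library this is at least 47.3-fold lower, counting error only. With Ada1-1 at this bound the median of the list is unchanged. Its paralog Ada1-2 had 8.94, 6.50 and 10.2 CPM in NF-YA RNAi libraries, against 6.21, 7.13 and 7.28 CPM in control libraries. Summed, Ada1-1 and Ada1-2 had 8.53 ± 1.86 CPM in NF-YA RNAi and 8.66 ± 0.137 CPM in control ISCs (SD, n = 3 each). How counts were divided between these paralogs, and whether the strains differ at Ada1-1, was not tested, and the value of Ada1-1 on its own is uncertain.

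None of 7 genes, those for TBP, its relatives, TFIIA and TFIIB, on which NC2 acts, and Hel89B, the relative of the yeast ATPase Mot1 that removes TBP from DNA, passed the edgeR test (median log2 fold change -0.22), with 5 of them at an unadjusted p under 0.05. Their log2 fold changes ran from -0.36 for Trf2 to 0.51 for Tbp (edgeR adjusted p = 0.102 and 0.164), and DESeq2 called none of the 7. None of 10 subunits of the acetyltransferase complex ATAC passed either (median 0.06), with 2 at an unadjusted p under 0.05. The lowest of these was D12, with 2.27 ± 0.579 CPM in NF-YA RNAi and 4.57 ± 1.13 CPM in control ISCs (SD, n = 3 each; log2 fold change -1.01, SE 0.323, edgeR adjusted p = 0.0674), and DESeq2 called it (adjusted p = 0.033). The highest was Mocs2B at 0.37, with 0 CPM in control library 3. Of 4 replacement histones, which share the fold itself, none passed the edgeR test (median 0.26, 1 at an unadjusted p under 0.05, none called by DESeq2), with log2 fold changes from -0.13 for His3.3B to 0.27 for His2Av. The share of all genes at an unadjusted p under 0.05 was not determined, but is at least the 14.2% called after adjustment. Counts at that threshold are therefore a description only.

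Last, the genes whose profiles were most like that of Nf-YA were sought over the 6 libraries, by the root-mean-square difference of log2 CPM after each gene's control mean had been subtracted, among 5784 genes with at least 5 CPM in control ISCs. The 5 closest were CG33090 (0.262), CG9837 (0.281), CG42784 (0.321), form3 (0.413) and CG10175 (0.423). CG33090 had 28.4, 30.0 and 30.4 CPM in NF-YA RNAi libraries 2, 4 and 5, against 107, 117 and 114 CPM in control libraries. CG42784 had 16.1, 13.0 and 12.4 CPM in NF-YA RNAi libraries, against 68.8, 66.9 and 60.8 CPM in control libraries. In both, each NF-YA RNAi library lay below all control libraries, as the measure of likeness requires, and their levels are given as a description without a test.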

How the data were processed

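Per the labels and methods, RNA extracted from YFP-sorted ISCs was sequenced as paired reads of 75 bp. The paper describes this as mRNA sequencing. The authors trimmed reads with Trim Galore, aligned them with STAR and deposited, for each library, Salmon's estimated counts for 34989 transcripts, not normalized. The deposited TPM are Salmon's, per 1000000 transcripts and per effective length. The submitters' processing notes instead name Trimmomatic 0.33, TopHat2 2.1.0, HTSeq 2.7.6 and limma 3.28.8, which do not include the Salmon whose output the deposited files hold. A further table from the authors covers 8470 genes, and its signal values are, as deposited, counts divided by normalization factors. Its log2 fold changes, their standard errors (a score) and p-values are the authors' own comparison as deposited, and were not used.

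Transcripts were summed to 17609 genes (BDGP6.54, Ensembl). Left out were 44 transcripts in no gene of this annotation, which held 0.209% to 0.345% of counts. Sums were rounded, filtered with filterByExpr and scaled with TMM. The groups were compared in edgeR (version 4.0.16, in R 4.3.3) by its quasi-likelihood test, with Benjamini-Hochberg adjustment over all genes. Calls are at an adjusted p of 0.05. A count of 3, the floor used for genes without counts, corresponds to 0.0246 to 0.0378 CPM. The steps were tested on simulated data. Alternatives used DESeq2 1.42.0, limma 3.58.1 on log2(TPM + 0.5), log2(TPM + 0.1) and log2(normalized value + 1), other scalings and filters, and each library left out.

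The NF-Y and histone-fold genes, the lists of related complexes and the cell type markers were chosen with earlier results of these data known. Named in the text are these genes, genes that overlap them, of each list the genes called and otherwise those with the largest and smallest change, and the 5 profiles nearest to Nf-YA. PolE2, Iswi and Ada1-2, as the partner or paralog of a called gene, Hel89B, and Taf9 and Trf, which an alternative called, were also named after their values were seen. So were the enterocyte markers nub, mex1 and Amy-p. The listed names rye, Dl and hdc were not matched to a gene by symbol or by a single synonym and were left out. This does not show that these genes are absent from the annotation. The gene sa was at 0.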

Additional observations from a re-analysis of the deposited data

How the results depend on the processing

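Nf-YA was called in all 16 alternatives, with a log2 fold change of -2.34 to -2.06 over the fits that left out 1 library and -2.21 to -1.88 over the others (adjusted p between 6.34e-21 and 0.00244 by edgeR, DESeq2 or limma). None of the other 6 genes and PolE4 was called in any. With 1 library left out, the log2 fold change of Nf-YC was -0.46 to -0.23, of NC2beta 0.0738 to 0.28, of Chrac-14 0.0553 to 0.58 and of PolE4 -0.28 to -0.0336. Those nearest to 0 changed sign. That of Nf-YB was -0.0005 without a filter, -0.0369 with counts scaled for transcript length, -0.0463 on the deposited values and -0.26 to 0.14 with 1 library left out. That of NC2alpha was 0.0427 with library size only, 0.0592 on log2(TPM + 0.5), 0.0612 on log2(TPM + 0.1) and -0.17 to 0.10 with 1 library left out. That of Chrac-16 was 0.0006 by DESeq2, 0.0753 with library size only, 0.0011 with RLE size factors, 0.0291 and 0.0289 on these TPM scales and -0.15 to 0.18 with 1 library left out. Bet3 was at 0.0377 with library size only, 0.0435 on log2(TPM + 0.5), 0.0452 on log2(TPM + 0.1) and -0.139 to 0.0892 with 1 library left out, and Mocs2B at -0.34 to 0.96 with 1 left out. Transcript FBtr0071827 of PolE4 was at -0.20 to 0.0589, FBtr0073642 of Chrac-16 at -0.55 to 0.18 and that of Nf-YA at -2.36 to -2.07 with 1 library left out. The number of related genes called upregulated was 1 to 2 with 1 library left out, and 4 with library size only and on log2(TPM + 0.5). The number called downregulated was 2 by DESeq2 and 0 on the deposited values, where Ada1-1 was not tested. Ada1-1 was not tested with at least 10 counts in every library either, and D12 was called there (edgeR adjusted p = 0.0482). By limma, Acf was not called on log2(TPM + 0.5) (log2 fold change 0.53, adjusted p = 0.0642) or log2(TPM + 0.1) (0.64, adjusted p = 0.079), nor PolE1 on log2(TPM + 0.1) (0.78, adjusted p = 0.0557), while Taf9 and Trf were called on both TPM scales. Taf9 was also called by edgeR with library size only (log2 fold change 0.37, adjusted p = 0.0442). Other causes were not tested.

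The replicate numbers in the titles are shared by 2 pairs of libraries only, whose deviations correlated at 0.051 and -0.02. The methods state that samples of both lines were processed in parallel. Correlations in 2 pairs cannot show whether these libraries share more than the title number. With that number as a replicate block, the log2 fold change of Nf-YA was -2.08 (edgeR adjusted p = 1.64e-05), that of its transcript -2.06 (adjusted p = 0.86), Nf-YB was at -0.0292, NC2alpha at 0.012, Mocs2B at -0.96, and 0 related genes were called upregulated.

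Over all genes, edgeR called 1290, DESeq2 1858, the block fit 787 and the fits without 1 library 506 to 1243, with the fewest without NF-YA RNAi library 4. At 190 to 451 counts per library, the depth of Nf-YB limits what can be said of it.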
